A study of Mus musculus with 15 samples.

Results

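Open chromatin was compared between the opposite fates of the intestinal crypt, secretory progenitors (Sec-Pro) and enterocyte progenitors (Ent-Pro). The members are all DNase I hypersensitive sites (DHS) in the deposited lists of these progenitors, 31980 in Sec-Pro and 38595 in Ent-Pro. These 70575 sites belong to 778471 peaks in the 12 lists of the series. Each progenitor has 1 DNase-seq library. The mice were C57BL/6, and no age is given. Sec-Pro were crypt epithelium from mice given the Notch inhibitor dibenzazepine (DBZ) or lacking Rbpj, and the labels do not say which of these served for DNase-seq. Ent-Pro were crypt epithelium from Atoh1-/- mice, which have no secretory cells. No sort is stated for either, nor when or in which cells the genes were deleted, so other crypt cells may be present and the effect of lineage cannot be told apart from that of the deletion or drug. The other lists used here are H3K4me2 in 7 libraries, H3K27ac in 1 library of each progenitor, and ATOH1 in 1 Sec-Pro library, precipitated through a FLAG tag.

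DNase I cuts DNA most readily where nucleosomes have been displaced, so its sites mark active or poised promoters, enhancers and insulators. In the crypt, a cell with strong Notch signalling represses Atoh1 and becomes absorptive, while its neighbours express ATOH1 and the Notch ligands and become goblet, Paneth, enteroendocrine or tuft cells. RBPJ is the DNA-binding partner of Notch in this switch. ATOH1 binds E-box sequences, and without it no intestinal secretory cell forms. H3K4me2 marks promoters and enhancers whether or not they are in use, and H3K27ac marks those in use. The comparison addresses how far open chromatin differs between cells that this switch sends to opposite fates.

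Both lists were made of short sites. Their median width was 350 bp in Sec-Pro (lower and upper quartiles 256 and 616 bp) and 331 bp in Ent-Pro (243 and 590 bp). They covered 15.0 Mb and 17.5 Mb of build mm9. The shortest site measured 200 bp in each list, and the widest 3290 bp and 3303 bp. Each site carries the authors' score, whose unit is not named. It was used only to rank sites within a list, as a percentile from lowest to highest. Score followed width closely, with a rank correlation over sites of 0.83 in each list, given as a description since width may enter the score. Each list held 6 sites on mitochondrial DNA, all of them shared. The number of reads is unknown, so a missing site is not shown to be closed. The intervals in brackets are 95% intervals that cover counting error only, and sites are not replicates, so no p-value is given.

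Most open sites were common to both progenitors. In Sec-Pro, 4683 sites (14.6% of the list) overlapped no Ent-Pro site by even 1 bp, and in Ent-Pro 11510 sites (29.8%) overlapped no Sec-Pro site. These are called one-sided below. Ent-Pro thus had 2.46 one-sided sites for each one in Sec-Pro. The ratio changed with how far down the lists were read. It largely follows the list lengths by construction, since nearly all overlapping sites overlapped 1 site each way. With Ent-Pro taken down to its 31980 highest-scoring sites, 6562 Sec-Pro sites (20.5%) and 6833 Ent-Pro sites (21.4%) were one-sided, a ratio of 1.04. With Ent-Pro taken down to the same covered length, which left 28389 sites, the balance turned over, to 8083 (25.3%) and 4792 (16.9%), a ratio of 0.593. Between the upper 50% of both lists it was 6.01, but each was 50% of its own list, so Ent-Pro supplied more sites. Between the top 15000 of each list, 1426 Sec-Pro and 1511 Ent-Pro sites had no partner. Which progenitor had more open sites of its own therefore could not be settled from these lists. Of the 6615 Ent-Pro sites removed for equal length, 4677 (70.7%) were one-sided and 1938 were shared. The last site kept, on chromosome 7 at 148034247 to 148034464, and the first removed, on chromosome 8 at 109108753 to 109108977, had the same score of 7.12, as did 14 sites in all. At equal covered length the limit lay at a score of 8.88, between chromosome 11 at 98233335 to 98233631 and chromosome 15 at 75939332 to 75939633.

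Strong sites were nearly all present on the other side, although not at the same rank. Every one of the 7500 highest-scoring sites of either progenitor had a counterpart in the full list of the other. Among the top 10000, 2 Sec-Pro and 4 Ent-Pro sites lacked one, and among the top 15000, 33 and 291 did. Set against the other top list of equal length, the agreement was not monotone. In the top 1000, 175 sites of each list had no partner in the other top 1000 (17.5%). The share was lowest in the top 10000, at 7.27% in Sec-Pro and 7.53% in Ent-Pro, and rose again to 20.5% and 21.4% for the top 31980. At every length the lists of equal size differed from each other by less than 1 percentage point. This follows from their equal length, since nearly all overlapping sites overlapped 1 site each way.

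**Figure D1:**
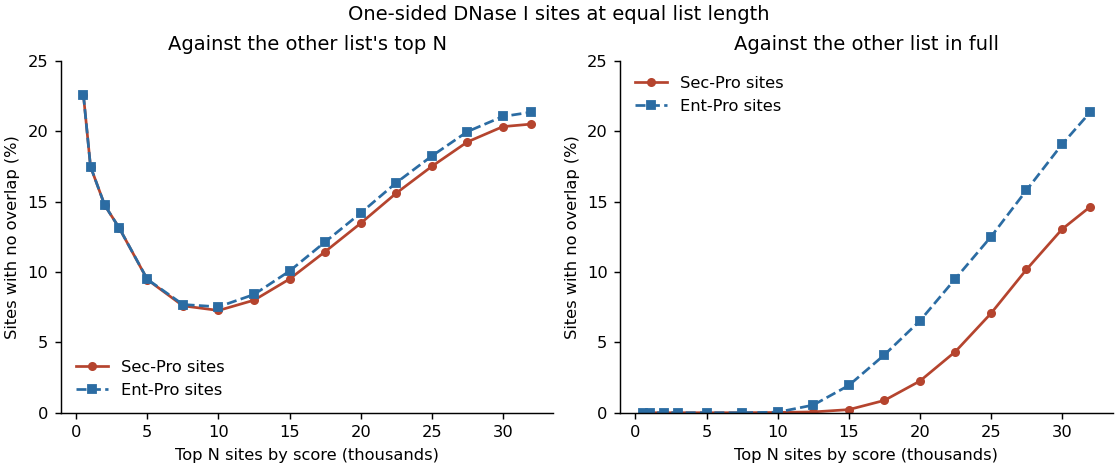
Share of the top N sites by score (x axis, N in units of 1000 sites) that overlap no site of the other list (y axis, percent), for Sec-Pro (circles) and Ent-Pro (squares), each point 1 pair of lists. Against the other top N (left) both curves fall to 7.27% and 7.53% at 10000 sites and then rise together, and against the other list in full (right) they stay at 0 up to 7500 sites and separate beyond 10000.

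One-sided sites were the narrow, low-ranked end of each list. Their median width was 218 bp [216 to 219] in Sec-Pro and 231 bp [230 to 232] in Ent-Pro, against 410 bp [406 to 416] and 452 bp [446 to 457] for shared sites. Sites under 250 bp made up 68.8% of the one-sided and 16.0% of the shared Sec-Pro sites, and 59.8% and 12.7% of those in Ent-Pro. In the full lists no one-sided site reached 1000 bp, a width that 1917 shared Sec-Pro and 2264 shared Ent-Pro sites had. The median score percentile was 17.3 for Sec-Pro-only and 22.7 for Ent-Pro-only sites, against 57.3 and 64.5 for shared ones. Equal list length left this order in place, with one-sided medians of 223 bp and 258 bp against 439 bp and 483 bp, and of percentiles 17.5 and 19.95 against 60.2 and 60.4. At equal covered length the one-sided medians were 228 bp and 275 bp, with percentiles of 18.5 and 17.9.

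The upper ranks of the lists differed in how many one-sided sites they held. In the lowest decile of the score, 40.5% [38.8 to 42.2] of Sec-Pro and 71.2% [69.7 to 72.6] of Ent-Pro sites were one-sided. In decile 5 the shares were 8.50% [7.58 to 9.52] and 32.6% [31.1 to 34.1], and in decile 7 0.219% [0.106 to 0.451] and 8.32% [7.49 to 9.23]. None of the sites in the top 2 deciles was one-sided in either full list. Above the 50th percentile stood 73 Sec-Pro-only and 1104 Ent-Pro-only sites, and above the 60th 9 and 350. With Ent-Pro at equal list length, the numbers above the 50th percentile were 101 and 421, and at equal covered length 158 and 194. Ent-Pro-only sites thus outnumbered Sec-Pro-only sites above the 50th percentile in each setting. The directions in which the numbers moved are fixed by construction. Only the Ent-Pro list was shortened, which lowers the percentiles of its remaining sites and can only add Sec-Pro-only sites. The highest rank reached moved in these same fixed directions. In the full lists it was percentile 75.9 for Sec-Pro-only and 76.5 for Ent-Pro-only sites. Sec-Pro-only sites reached 90.5 in both of the other settings, against 71.6 at equal list length and 68.0 at equal covered length for Ent-Pro-only sites. At a given rank one-sided sites were also narrower. In decile 7 their median was 319 bp against 490 bp in Sec-Pro, and 317 bp against 453 bp in Ent-Pro.

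**Figure D2:**
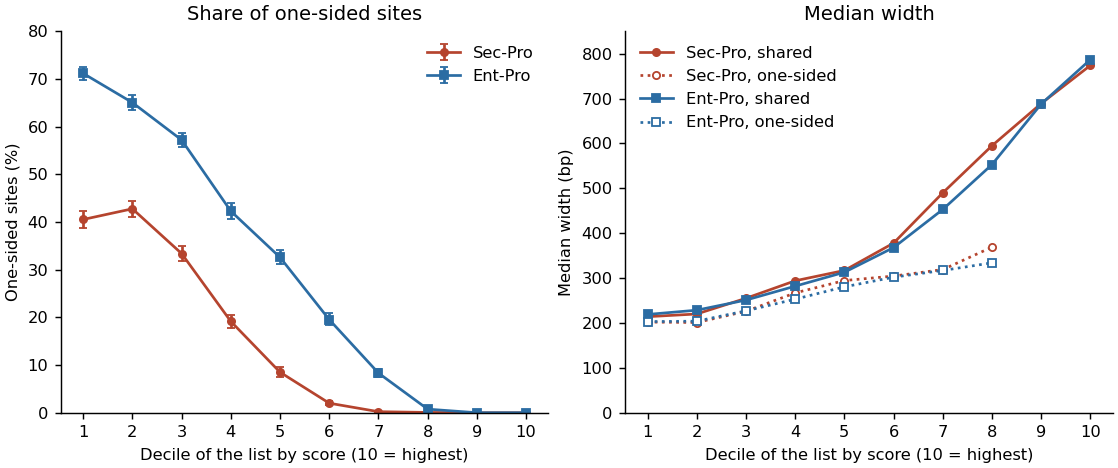
Left, share of sites in each decile of the list by score (x axis, 10 is the highest) that are one-sided (y axis, percent), with 95% Wilson intervals, and right, median width (bp) of shared (filled) and one-sided (open) sites in the same deciles. The Ent-Pro curve lies above the Sec-Pro curve in the first 8 deciles, and one-sided sites are narrower than shared ones wherever both exist.

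Most one-sided sites lay more than 1 kb from the other list. The median distance to its nearest site was 7062 bp for Sec-Pro-only sites and 11736.5 bp for Ent-Pro-only sites. Within 1 kb of it lay 747 (16.0%) and 1210 (10.5%), and more than 10 kb away 1901 (40.6%) and 6248 (54.3%). The denser Ent-Pro list shortens the Sec-Pro distances by construction. Across the 19 autosomes the one-sided share ran from 12.1% (chromosome 13) to 17.3% (chromosome 5) in Sec-Pro, and from 27.2% (chromosome 15) to 32.9% (chromosome 16) in Ent-Pro. On the X chromosome it was lower in both lists, 8.84% of 758 and 22.1% of 882 sites.

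One-sided sites of both kinds were often found in the same stretch of chromosome. In windows of 200000 bp, 2913 held a Sec-Pro-only site, and 2158 of these (74.1%) also held an Ent-Pro-only site. Among all 7990 windows with a DHS, 5061 (63.3%) held one, so the share was not far above that background. Only 18 windows had 3 or more Sec-Pro-only sites and no Ent-Pro-only site, against 607 the other way round, with the longer Ent-Pro list in full. The window richest in Sec-Pro-only relative to Ent-Pro-only sites spanned chromosome 2 from 165800001 to 166000000, with 7 and 0, beside 7 shared sites. On chromosome 7, from 25600001 to 25800000, the numbers were 8 and 2 with 14 shared. At the other end, chromosome 13 from 23600001 to 23800000 held 11 Ent-Pro-only sites, 1 Sec-Pro-only and 3 shared sites. A window of chromosome 1, from 36400001 to 36600000, held 9, 0 and 4. These windows were chosen for their counts.

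Histone marks and ATOH1, mapped in other libraries, were next read at the sites. Shared sites were widely marked. A peak of H3K4me2 or H3K27ac in at least 1 list overlapped 73.6% [73.0 to 74.1] of shared sites in the Sec-Pro list, and all 7 H3K4me2 lists marked 54.4%. Of the Ent-Pro-only sites 43.2% [42.3 to 44.1] had a histone peak, and of the Sec-Pro-only sites 21.3% [20.1 to 22.5]. The gap between the one-sided sets was also there at like rank. In the middle quintile by score, 74.9% of 1982 Ent-Pro-only sites carried a histone peak, against 36.0% of 336 Sec-Pro-only sites. Among one-sided sites under 250 bp the shares were 35.4% and 19.7%.

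H3K27ac set the one-sided sites apart in opposite directions from shared sites of like rank, and it did so in the H3K27ac lists of both progenitors. In the middle quintile of the Ent-Pro list, Ent-Pro H3K27ac lay at 59.4% [57.3 to 61.6] of one-sided and 24.7% [23.6 to 25.8] of shared sites. These shares were 74.8% and 36.9% at equal list length, 80.5% and 47.4% at equal covered length, and 92.2% and 77.0% between the upper 50% of the lists. The order held in each setting, and the gap was clearly smaller only in the last. In the full list, Sec-Pro H3K27ac lay at 51.3% [49.1 to 53.5] and 22.3% [21.3 to 23.4] of the same sites. In the middle quintile of the Sec-Pro list, Sec-Pro H3K27ac lay at 14.3% [10.9 to 18.4] of one-sided and 31.0% [29.8 to 32.2] of shared sites, and Ent-Pro H3K27ac at 14.6% [11.2 to 18.8] and 34.1% [32.9 to 35.3]. In the middle quintile, Ent-Pro-only sites were therefore more often acetylated than shared sites, also in Sec-Pro, and Sec-Pro-only sites less often. Ranks within the quintile were not quite alike. Its lower decile, 5, held 272 Sec-Pro-only and 1228 Ent-Pro-only sites, and decile 6 held 64 and 754. With all ranks pooled, both H3K27ac lists together marked 2867 Ent-Pro-only sites (24.9%) and 323 Sec-Pro-only sites (6.90%). They marked 49.0% of shared sites in the Ent-Pro list and 49.1% in the Sec-Pro list, which rank higher. Pooled, both one-sided sets were thus less often acetylated than shared sites. At equal covered length, where Sec-Pro had more one-sided sites, Ent-Pro H3K27ac lay at 46.4% of the Ent-Pro-only and 8.31% of the Sec-Pro-only sites. At shared sites in that setting it lay at 59.4% in the Ent-Pro and 59.3% in the Sec-Pro list.

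**Figure D3:**
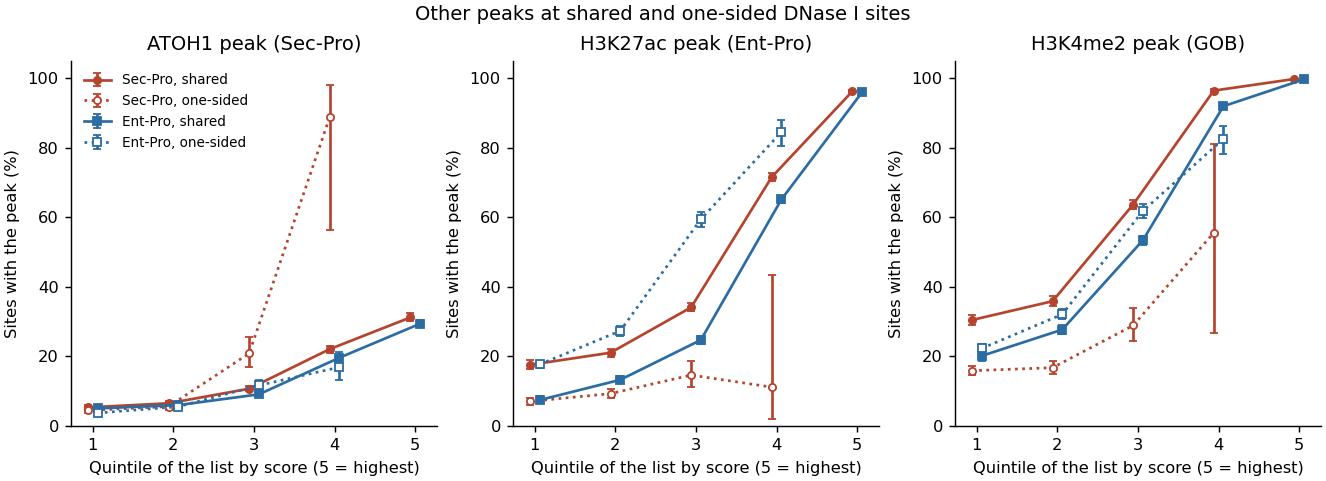
Share of DNase I sites with an overlapping ATOH1, Ent-Pro H3K27ac or GOB H3K4me2 peak (y axis, percent) by quintile of the list by score (x axis, 5 is the highest), for shared (filled, solid) and one-sided (open, dotted) sites of each list, with 95% Wilson intervals. One-sided Ent-Pro sites lie above and one-sided Sec-Pro sites below the shared sites for H3K27ac, and for ATOH1 Sec-Pro-only sites of quintiles 3 and 4 stand highest, the latter only 9 sites.

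Sites with H3K27ac in a single progenitor had it mostly in Ent-Pro, except the Sec-Pro-only sites, which divided about evenly. Among Sec-Pro-only sites H3K27ac was found in Sec-Pro alone at 63 and in Ent-Pro alone at 69. Among Ent-Pro-only sites Sec-Pro alone had it at 149 and Ent-Pro alone at 606, which gave an odds ratio of 3.71 [2.53 to 5.46], a log2 value of 1.89 [1.34 to 2.45]. For the upper 50% of each list against the other list in full, the log2 value was 2.52 with an interval from -0.20 to 5.24, which includes 0. Shared sites of the Sec-Pro list split 291 to 1046, so 21.8% [19.6 to 24.1] of singly acetylated shared sites had the mark in Sec-Pro. With all ranks pooled, Ent-Pro-only sites lay near this level at 19.7% [17.1 to 22.7], and Sec-Pro-only sites departed from it, at 47.7% [39.4 to 56.2]. The splits varied with rank. For Ent-Pro-only sites the share was 23.7% up to the 40th percentile of their list and 11.5% above it. Sec-Pro-only sites split 37 to 25 in quintile 1 by score, the lowest, and 19 to 36 in quintile 2. Shared sites of the Sec-Pro list split 48 to 107 and 59 to 158 in the same quintiles. For H3K4me2 in a single progenitor the odds ratio was 1.45 [1.02 to 2.04] between the DBZ-treated Sec-Pro list and Ent-Pro replicate 1. It was 2.24 [1.52 to 3.29] between the Rbpj-deleted Sec-Pro list and Ent-Pro replicate 2. Each pair of lists shares its shortest peak width.

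The mature lineages were read through H3K4me2 in goblet cells (GOB, from villi without Rbpj) and enterocytes (ENT, from villi without Atoh1). Sec-Pro-only sites were marked in GOB alone at 274 and in ENT alone at 48 (85.1% in GOB [80.8 to 88.6]). Shared sites had nearly the same split, 1092 to 228 (82.7% in GOB [80.6 to 84.7]). Ent-Pro-only sites stood apart from both, with 488 to 351 (58.2% in GOB [54.8 to 61.5]). The log2 odds ratio between the one-sided sets was 2.04 [1.55 to 2.52], and this difference thus lay on the Ent-Pro side. Among one-sided sites without an ATOH1 peak it was 1.94 [1.44 to 2.44]. Among those with one, few were marked in ENT alone (57 to 2 and 64 to 6), and the value of 1.42 had an interval from -0.95 to 3.78, which includes 0.

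In the full lists, ATOH1 peaks lay at 6.15% [5.50 to 6.87] of Sec-Pro-only sites and 6.06% [5.63 to 6.51] of Ent-Pro-only sites, a difference within counting error. At shared sites of the full Sec-Pro list the share was higher, 16.7% [16.2 to 17.1]. With the lowest-ranked Ent-Pro sites left out, the share was higher at Ent-Pro-only sites. It was 5.68% [5.15 to 6.27] of Sec-Pro-only and 7.77% [7.16 to 8.43] of Ent-Pro-only sites at equal list length. At equal covered length it was 5.75% [5.27 to 6.28] and 9.24% [8.46 to 10.1]. The place of one-sided sites with ATOH1 in the ranking of the full lists also differed. In the middle quintile, 20.8% [16.8 to 25.5] of Sec-Pro-only sites had an ATOH1 peak, against 10.7% [9.90 to 11.5] of shared sites in that list and 11.6% [10.3 to 13.1] of Ent-Pro-only sites. No such excess over shared sites was seen in quintiles 1 and 2, the lowest, which held most Sec-Pro-only sites. There ATOH1 lay at 4.40% of 2639 and 5.53% of 1699 Sec-Pro-only sites, against 5.27% and 6.46% of shared sites. Of the 73 Sec-Pro-only sites above the 50th percentile 39 had one, and of the 9 above the 60th percentile 8 had one. The same numbers for Ent-Pro-only sites were 163 of 1104 and 59 of 350. All one-sided sites above the 60th percentile lay in quintile 4. Of all sites in that quintile, 22.2% in Sec-Pro and 19.5% in Ent-Pro had an ATOH1 peak. Most ATOH1 peaks had no DHS in either list (9267, or 60.8%), while 292 overlapped a Sec-Pro-only, 704 an Ent-Pro-only and 4989 a shared site of either list, 12 of them counted in more than 1 class. The median ATOH1 score percentile was 70.7, 64.6 and 49.8 at these classes, and 47.6 at ATOH1 peaks without a DHS. ATOH1 was mapped in Sec-Pro, and Ent-Pro lack the protein.

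The 6 highest-scoring Sec-Pro-only sites ranked between 7719 and 11142 of the list, and 5 of them lay under an ATOH1 peak. The first, on chromosome 4 at 120374744 to 120375067 (324 bp, percentile 75.9), lay 1855 bp from the nearest Ent-Pro site and had no histone peak in any list. The next, on chromosome 1 at 82286672 to 82287085 (414 bp, percentile 75.7), was the exception, with no ATOH1 peak, H3K4me2 in all 7 lists and an Ent-Pro site 487 bp away. Next in rank stood chromosome 10 at 79397038 to 79397359, where H3K4me2 was found in DBZ-treated Sec-Pro, Ent-Pro replicate 1, GOB and ENT. After it came chromosome 1 at 74945324 to 74945624, which had H3K4me2 in all 4 progenitor lists and GOB but not in stem cells or ENT, and H3K27ac in both progenitors. The site on chromosome 15 at 82639954 to 82640282 and that on chromosome 8 at 72919600 to 72919914 each had an ATOH1 peak and no histone peak. The high end of the Sec-Pro-only set was thus rich in ATOH1 and poor in H3K27ac, which was present at 1 of the 6. The widest Sec-Pro-only site measured 719 bp, on chromosome 19 at 16510944 to 16511662, with an Ent-Pro site 277 bp away.

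The 6 highest-scoring Ent-Pro-only sites looked otherwise, with H3K27ac in Ent-Pro at every one and an ATOH1 peak at 2. The first, on chromosome 19 at 7385208 to 7385562 (355 bp, percentile 76.5), lay 15408 bp from the nearest Sec-Pro site and carried H3K4me2 in all 7 lists and H3K27ac in both progenitors. The site on chromosome 2 at 32326598 to 32326920 had an ATOH1 peak, and among the H3K4me2 lists it was marked by DBZ-treated Sec-Pro and GOB alone. That on chromosome 17 at 28649630 to 28649995 had H3K4me2 in every list but ENT. Both sites on chromosome 6, at 83372262 to 83372626 (with ATOH1) and at 34426067 to 34426455, carried H3K4me2 in all 7 lists and H3K27ac in both progenitors. The sixth, on chromosome 15 at 94490621 to 94490903, lay 30607 bp from the nearest Sec-Pro site, with H3K27ac in Ent-Pro alone. H3K4me2 was found there in DBZ-treated Sec-Pro and both Ent-Pro lists, and in neither mature lineage. The widest Ent-Pro-only site, 777 bp on chromosome 4 at 129262248 to 129263024, had H3K4me2 in all 7 lists, H3K27ac in both progenitors and an ATOH1 peak.

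Sites found in both lists were compared by rank. Of the shared sites, 26250 overlapped 1 site each way and were treated as pairs. Another 215 Sec-Pro sites overlapped exactly 2 Ent-Pro sites, and 423 Ent-Pro sites overlapped exactly 2 Sec-Pro sites. Pairs lay close together, with a median distance between centres of 18 bp and 96.1% within 100 bp. The Ent-Pro site was the wider one in 17067 pairs (65.0%) and the Sec-Pro site in 8800 (33.5%), with a median difference of 16 bp. The median widths were 446 bp and 410 bp. Ranks agreed closely, with a correlation of scores over pairs of 0.92 and of widths of 0.91, given as descriptions of the 2 libraries.

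Percentiles were then taken among the 26250 pairs, so that both lists have the same length. The percentiles of 13129 pairs (50.0%) were within 5 points of each other. In 1084 pairs (4.13%) the Sec-Pro site stood 20 points or more higher, and in 1300 pairs (4.95%) the Ent-Pro site did. The largest shift towards Sec-Pro was on chromosome 16, at 56037618 to 56038121, where the score was 144 in Sec-Pro (percentile 88.6) and 4.47 in Ent-Pro (0.568), at sites of 504 bp and 512 bp. The next was also on chromosome 16, at 78301738 to 78302498 (percentiles 82.7 and 7.90). Both carried all 7 H3K4me2 marks and H3K27ac in both progenitors, and the second also had an ATOH1 peak. The third, on chromosome 8 at 122879898 to 122880233 (65.9 and 2.12), had an ATOH1 peak and H3K4me2 in GOB alone among the histone lists. At the second the widths were 761 bp and 837 bp, so at the first 2 of these sites the site ranked far lower in Ent-Pro was not the narrower one.

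The largest shift towards Ent-Pro was on chromosome 17, at 28499651 to 28499850, with percentiles of 6.18 in Sec-Pro and 85.7 in Ent-Pro and widths of 200 bp and 218 bp. It was followed by chromosome 6 at 64680064 to 64680415 (21.2 and 87.2) and at 37392264 to 37392463 (10.7 and 68.6). None of these 3 had an ATOH1 peak, and the latter pair had H3K27ac in both progenitors. The highest-ranked pairs in both lists, on chromosome 7 at 87377207 to 87377908, chromosome 6 at 86422077 to 86422614 and chromosome 5 at 140864873 to 140865522, carried H3K4me2 in all 7 lists and H3K27ac in both progenitors. The last of these also had an ATOH1 peak.

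**Figure D4:**
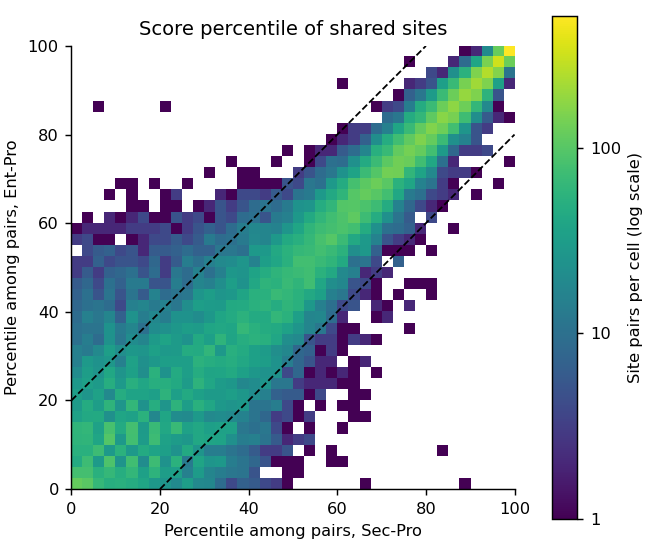
Score percentile of the 26250 shared pairs among pairs, in Sec-Pro (x axis) and Ent-Pro (y axis); the colour gives the number of pairs per cell on a log scale, and dashed lines mark differences of 20 points. High-ranked pairs lie near the diagonal and low-ranked ones scatter widely.

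In the upper tercile of pairs by mean percentile, only 9 ranked 20 points or more higher in Sec-Pro and 2 in Ent-Pro, so ATOH1 and H3K27ac were compared within terciles. Over all pairs, ATOH1 lay at 17.4% [15.3 to 19.8] of those higher in Sec-Pro, 12.7% [10.99 to 14.6] of those higher in Ent-Pro and 20.3% [19.6 to 21.0] of those within 5 points, which ranked higher (median Sec-Pro percentiles 37.8 and 69.0 for the first and last of these). In the middle tercile the pairs that ranked higher in Sec-Pro were rich in ATOH1. An ATOH1 peak lay at 104 of 227 such pairs (45.8% [39.5 to 52.3]), at 14.9% [13.7 to 16.1] of 3548 pairs within 5 points, and at 16.5% [13.1 to 20.4] of 395 pairs that ranked higher in Ent-Pro. The share grew with the shift towards Sec-Pro, from 16.3% [14.5 to 18.3] at 5 to 10 points and 18.3% [16.1 to 20.8] at 10 to 20 points to 36.3% [29.4 to 43.7] at 20 to 30 points and 42 of 56 pairs [62.3% to 84.5%] at 30 points or more. Towards Ent-Pro it lay between 12.3% and 17.6% in each bin, with 14.2% [9.27 to 21.1] at 30 points or more. In the lower tercile of pairs, ATOH1 lay at 9.08% [7.33 to 11.2] of those higher in Sec-Pro, 11.1% [9.19 to 13.3] of those higher in Ent-Pro and 5.36% [4.56 to 6.28] of those within 5 points. The excess on the Sec-Pro side over the Ent-Pro side was therefore not seen at low ranks.

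H3K27ac moved the other way in the middle tercile, over most of the range of shifts. Both progenitors' H3K27ac lay at 74.9% [70.4 to 79.0] of middle-tercile pairs that ranked higher in Ent-Pro, 45.04% of those within 5 points and 23.8% [18.7 to 29.7] of those that ranked higher in Sec-Pro. Sec-Pro H3K27ac alone considered, the shares were 77.6% [69.8 to 83.8] at 30 points or more towards Ent-Pro, 46.3% [44.6 to 47.9] at 5 points or less and 24.0% [18.2 to 30.9] at 20 to 30 points towards Sec-Pro. For Ent-Pro H3K27ac they were 88.1% [81.5 to 92.5], 50.6% [49.0 to 52.3] and 29.2% [22.9 to 36.5]. Among the 56 pairs at 30 points or more towards Sec-Pro each list marked 33.9% [22.9 to 47.0], so the fall did not go on in the last bin. Over all pairs, where those within 5 points ranked highest, H3K27ac in both progenitors lay at 50.1% [47.4 to 52.8] of pairs higher in Ent-Pro, 62.9% [62.1 to 63.8] of those within 5 points and 12.0% [10.19 to 14.1] of those higher in Sec-Pro. The order of the first and second of these thus differs from that in the middle tercile. In the lower tercile, H3K27ac in both progenitors lay at 39.1% [36.0 to 42.3] of pairs higher in Ent-Pro and 9.77% [8.70 to 10.96] of those within 5 points. At pairs higher in Sec-Pro it was 8.49% [6.80 to 10.6], so a fall on the Sec-Pro side was not seen at low ranks. Within the middle tercile the H3K27ac lists of both progenitors thus followed the DNase I shift in the same direction. The cause was not tested.

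**Figure D5:**
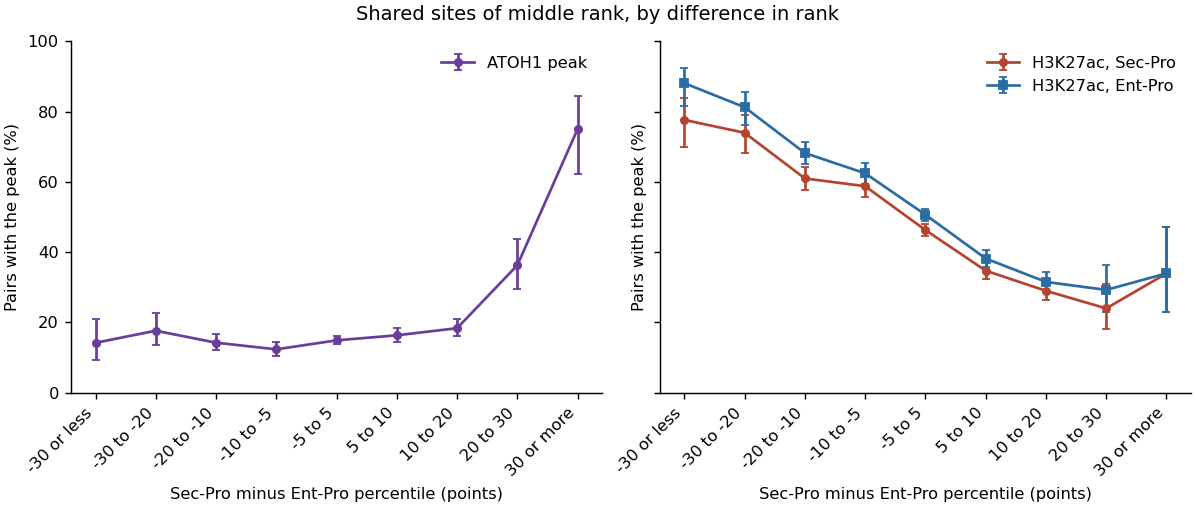
Share of shared pairs in the middle tercile by mean percentile that overlap an ATOH1 peak (left) or an H3K27ac peak (right) on the y axis (percent), by Sec-Pro minus Ent-Pro percentile (x axis, points), with 95% Wilson intervals. ATOH1 rises towards Sec-Pro, from 18.3% at 10 to 20 points to 42 of 56 pairs in the last bin, whereas both H3K27ac lists fall from the Ent-Pro side to 24.0% and 29.2% at 20 to 30 points and stand at 33.9% in the last bin.

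Pairs with H3K27ac in a single progenitor had splits like those of one-sided sites. Those that ranked higher in Sec-Pro had it in Sec-Pro alone at 25 and in Ent-Pro alone at 32, and those that ranked higher in Ent-Pro at 17 and 81 (log2 odds ratio 1.90 [0.83 to 2.96]). H3K4me2 in GOB alone against ENT alone split 107 to 13 and 71 to 30 (log2 odds ratio 1.80 [0.76 to 2.83]). The rank of the marks themselves was also compared. Over 7979 pairs whose centre lay in an H3K27ac region found in both progenitors, the differences in percentile had a rank correlation of 0.05, and for GOB minus ENT H3K4me2 it was 0.12 over 11306 pairs. Several pairs can lie in 1 such region. The GOB percentile exceeded the ENT percentile at 72.5% of 222 pairs higher in Sec-Pro (median difference 5.61 points) and at 53.7% of 505 pairs higher in Ent-Pro (0.71 points), against 59.0% of all. For H3K27ac the Sec-Pro percentile was the higher one at 50.7% of 67 pairs and 40.1% of 329 pairs, with medians of 0.13 and -1.19 points.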

How the data were processed

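The tools named in the submitters' processing notes are MACS2, Bowtie 0.12.7 and CASAVA 1.7, and the build is mm9. For their parameters, the read numbers and the use of input DNA the sources used here give nothing. The authors deposited 1 list per library, with 0-based positions and a score whose unit is not named. Positions are printed 1-based. The 3 input samples were not analysed here.

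Overlaps were computed with NumPy 2.4.6, pandas 2.3.3 and SciPy 1.17.1 under Python 3.11.15, and figures with matplotlib 3.10.9. Sites were shared when at least 1 bp overlapped, and a mark was counted when its peak overlapped the site by 1 bp. Lists were shortened by score, ties in order of position. Scores are much tied (61.0% of Sec-Pro and 63.2% of Ent-Pro sites share theirs). Shares have Wilson 95% intervals, odds ratios Wald intervals and medians binomial ones. On simulated lists with 4000 sites dropped and 800 added, 4000 and 800 were found.

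Named sites were the 6 highest-scoring one-sided sites of each list, the widest one, the 3 pairs with the largest shift each way, the 3 highest in both, and the sites at the score limits, leaving out chromosome 18. Members and lists were chosen with earlier results of these data known. The marks at shared pairs by shift, the middle quintile and the windows were added after the data were examined. The gene and promoter tables at hand are of GRCm38.p6, so no gene is named, and the planned gene lists, motif counts and sequences were not run.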

Additional observations from a re-analysis of the deposited data

How the results depend on the processing

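Of 176 values under alternative settings, 95 stayed within 1.5 times the reported count or ratio, or within the 95% interval of the reported value, 80 moved further and 1 reversed. The reversal was the number of Ent-Pro-only per Sec-Pro-only sites, 0.593 at equal covered length, against 1.04 at equal list length, 6.01 between the upper 50% of both lists and 15.1 for the upper 50% against the other list in full. In these settings but the last, the number largely follows the list lengths by construction, since nearly all overlapping sites overlapped 1 site each way. For the last the cause was not tested. One-sided sites of Sec-Pro numbered 8083 at equal covered length, 677 between the upper 50% and 73 for the upper 50% against the full list, and those of Ent-Pro 6833 at equal list length and 4792, 4066 and 1103 in these settings. In the same settings the median width was 228, 330 and 309 bp for Sec-Pro-only (223 bp at equal list length) and 275, 328 and 309 bp for Ent-Pro-only sites (258 bp at equal list length, 233 bp with 50% of the site covered). Median percentiles were 18.5, 6.89 and 5.71 for Sec-Pro-only and 17.9, 14.5 and 13.2 for Ent-Pro-only sites, 19.95 for the latter at equal list length and 22.7 on autosomes, and 16.2 and 21.9 with sites within 1 kb merged. The rank correlation of shared sites was 0.925 with 50% covered, 0.926 at equal list length, 0.930 at equal covered length, 0.947 in both settings of the upper 50% and 0.929 after merging.

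The log2 odds ratio of H3K27ac was 1.31 [0.19 to 2.43] between the upper 50% of the lists and 2.52 [-0.20 to 5.24] against the full list, the latter interval including 0. That of GOB against ENT was 4.26 [1.30 to 7.23] for the upper 50% against the full list and 1.48 [0.97 to 1.99] with marks read at the centre of the site. The ATOH1 share of Sec-Pro-only sites was 22.9% and 53.4% in the settings of the upper 50% and 4.70% at the centre. For Ent-Pro-only sites it was 11.4%, 14.8% and 4.41%, with 7.77% at equal list length, 9.24% at equal covered length, 5.49% when sites within 1 kb counted as shared and 5.58% after merging. Among middle-tercile pairs higher in Sec-Pro it was 53.8% at equal covered length, 60.1% in both settings of the upper 50%, 53.0% after merging and 36.6% at the centre, and among those higher in Ent-Pro 12.2% at the centre. H3K27ac in both progenitors lay at 50.0% of the pairs higher in Sec-Pro in both settings of the upper 50% and 18.1% at the centre, and at 93.3% and 54.4% of those higher in Ent-Pro, with 81.7% at equal covered length. Reading marks at the centre of the site, and every setting for marks at pairs or in the middle quintile, was chosen after the data were examined.

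No paired analysis was possible because each progenitor has 1 DNase-seq library. Read depth is unknown, so a closed site and an open one below the caller's limit cannot be told apart.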
